A study of Drosophila melanogaster with 8 samples.

Results

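Cell death in *Drosophila* turns on a short pathway, and 10 of its genes were examined here for binding of RNase H1 in wing imaginal discs. They are the death activators *hid*, *grim*, *rpr* and *skl*, the caspase genes *Dronc*, *Drice* and *Dcp-1*, the adaptor *Dark*, and the inhibitors *Diap1* and *Diap2*. The activators lie within 272198 bp of chromosome arm 3L, with other genes between them. The 10 genes were chosen with earlier results of these data known. All were looked up by gene symbol in the authors' tables of genes beside a peak, and kept whatever their values. Of the 10, 7 stood in those tables, which hold 9826 genes in all. RefSeq annotates 17684 coding and non-coding genes on the 6 chromosome arms. These counts come from separate gene lists. *grim*, *skl* and *Drice* stood in neither table, and their surroundings were read from the full peak lists.

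In Targeted DamID a DNA adenine methylase (Dam) is fused to a protein and expressed at a low level, and the GATC sites it methylates mark the DNA that the fusion touched. Since RNase H1 binds hybrids of RNA and DNA, the fusion Dam-RNase H1 marks DNA where such hybrids can form. The ecd1 discs came from larvae with the genotype nub>Dam-RNase H1; ecd1 (3 libraries, with 1 library of nub>Dam; ecd1), and the control discs from nub>Dam-RNase H1 larvae (3 libraries, with 1 of nub>Dam). ecd1 is a temperature-sensitive allele of *ecdysoneless*, a gene with roles in ecdysone synthesis and in splicing. All larvae, controls too, carried a heat-sensitive Gal80 under the tubulin promoter, grew at 25 °C, spent 24 h at 29 °C from day 6 after egg laying and were dissected in the third instar on day 7. The shift switched on the Dam constructs and inactivated the mutant protein together. The driver *nub* is active in the wing pouch, so the methylation comes mainly from those cells, while the ecd1 mutation is carried by the whole animal. The title and genotype of the ecd1 Dam-only library name Dam alone, whereas its description names Dam-RNase H1.

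The files give 1 peak list per genotype and, for the comparison, 1 table of regions per direction. They hold no value of a single library, so no height below has a replicate error, no test of the genotypes could be run, and the depth behind each value is unknown. Peak height is the authors' own score, without a stated unit or log base. The lists were made separately, and heights ran larger in the ecd1 list, with a median of 1.10 over 9559 ecd1 peaks and of 0.88 over 8597 control peaks. All 6 wing disc genes looked up as a check of the tissue (*nub*, *vg*, *sd*, *ap*, *rn* and *wg*) had a listed peak in both genotypes. So did the myoblast genes *twi* and *Mef2*, the neuronal genes *elav* and *Syt1*, the tracheal gene *trh* and the blood cell gene *srp*. The tracheal gene *btl* and the blood cell gene *Hml* had one in ecd1 discs alone. The myoblast gene *zfh1* and the neuronal gene *nSyb* had none in either genotype. Peaks are not expression, so these genes do not tell cell types apart here.

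The pathway works by release from inhibition. Reaper (*rpr*), Hid, Grim and Sickle (*skl*) carry a short motif at the N terminus that binds the inhibitor Diap1, a ubiquitin ligase that otherwise keeps caspases in check. Freed from Diap1, the initiator caspase Dronc assembles with Dark, the fly homologue of Apaf-1, and cleaves the effector caspases Drice and Dcp-1. Diap2 is a related inhibitor that restrains Drice and also serves in innate immune signalling. In growing wing discs the activator genes are switched on by irradiation, by p53 and by JNK signalling, and the DNA between them holds distant enhancers.

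Peaks were listed for 7 of the 10 genes in ecd1 discs and for the same 7 in control discs. The authors listed a peak for 8754 genes in ecd1 discs and for 8284 in control discs. Set against the number of annotated genes, these are 49.5% and 46.8%. The activators stood at 2 of 4 (*hid* and *rpr*), the caspases with the adaptor at 3 of 4, and the inhibitors at 2 of 2. A peak lay over the gene itself at 5 of the 10 in ecd1 discs (41.9% of all annotated genes) and at the same 5 in control discs (40.4%), namely *hid*, *Dronc*, *Dcp-1*, *Dark* and *Diap1*. Over the 7 genes the listed heights ran from 1.07 to 2.33 in ecd1 discs, with a median of 2.01, and from 0.50 to 1.51 in control discs, with a median of 1.04. All genes of the tables had medians of 1.21 in ecd1 discs and 0.95 in control discs.

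A listed peak is 1 of several near a gene, and which of them was listed differed between the genotypes. The listed interval was the same for *rpr*, *Dronc* and *Diap2* and different for the other 4 genes. *Dcp-1* shows what follows from that. Its listed height was 1.07 in ecd1 discs and 1.5 in control discs, the only one of the 7 with the larger listed value in control. The 2 numbers describe different stretches of DNA, however, and an ecd1 peak of 2.54 lay across the gene without being the listed one. For each gene, therefore, all peaks within 2000 bp of a listed peak were gathered, which gave 15 ecd1 and 13 control peaks. By the tallest of these, all 7 genes had the larger value in ecd1 discs. This count was not made for other genes. Larger heights in ecd1 were common, as 85% of the 1801 peaks with identical ends in both lists were taller there.

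**Figure D1:**
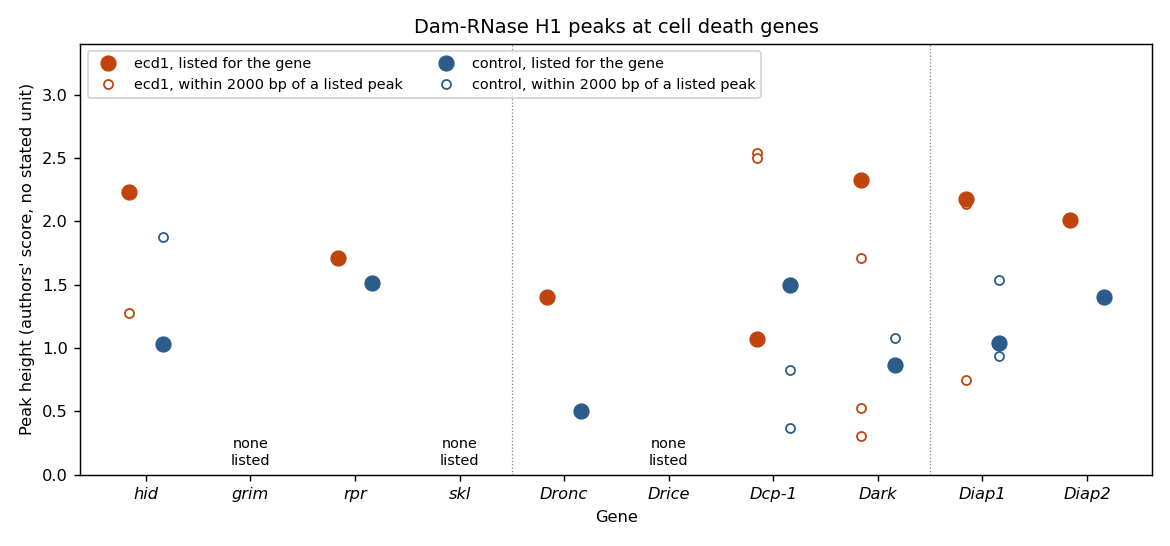
Height of each Dam-RNase H1 peak (authors' score, vertical axis) at the 10 genes, ecd1 left of control for each gene, with large filled points for the peak listed for the gene and small open points for other peaks within 2000 bp of a listed peak; dotted lines part activators, caspases with the adaptor, and inhibitors. *Dcp-1* has its 2 tallest ecd1 peaks (2.54 and 2.50) among the open points, and *grim*, *skl* and *Drice* have no listed peak.

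The authors' calls of differing regions set the activators beside the rest of the pathway. In the authors' deposited table of regions higher in ecd1, 5 of the 10 genes appear, *Dronc*, *Dcp-1*, *Dark*, *Diap1* and *Diap2*. These were 5 of the 7 genes with a peak (71.4%), where 57.1% of all 9826 genes with a peak in either genotype had such a region. All 3 caspase and adaptor genes with a peak and both inhibitor genes were among them, and neither *hid* nor *rpr* was. In the authors' deposited table of regions higher in control, *hid* alone appears, 1 of 7 (14.3%), where the share among all genes with a peak was 22.1%. No member was called in both directions, where 12.3% of all genes with a peak were. With 2 activators and 5 other genes to compare, these counts describe the loci and were not tested.

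*hid* (FBgn0003997, 3L:18167745-18185641) spans 17897 bp and is longer than 91.8% of protein-coding genes. Its interior held a peak of 1.23 in ecd1 discs (3L:18172964-18177941) and of 1.30 in control discs (3L:18173700-18177941). These peaks lie outside the 2000 bp used to gather peaks, since neither is near a listed one. A second interior peak was found in the control list only, with a height of 0.58 (3L:18179648-18181245). Across the right end of the gene lay a peak of 1.28 in ecd1 discs (3L:18184776-18187794) and one of 1.03 in control discs (3L:18183844-18187155). The 2 peaks overlap, and the control peak begins further inside the gene. That overhang is the region of 0.57 that the authors' deposited table gives as higher in control (3L:18183844-18184776). It starts where the control peak starts and ends where the ecd1 peak starts. Peaks covered 32.7% of the gene in ecd1 discs and 42.7% in control discs. Control peaks thus covered more of the gene, although at the right end the ecd1 peak was the taller.

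Beyond its right end, *hid* was followed by a broad peak of 2.23 in ecd1 discs (3L:18189799-18196500, 4158 bp outside the gene) and of 1.88 in control discs (3L:18190746-18196605, 5105 bp outside). The ecd1 table lists it for *hid*, and the control table lists it for the non-coding gene *CR45234*. In its own list the ecd1 peak was taller than 95.9% of peaks, and the control peak was taller than 98.1%. Although the ecd1 peak was the taller, the authors' deposited table gives a part of it as 0.73 higher in control (3L:18192580-18194140). A peak's height and a call inside it can thus point in opposite directions at this locus.

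*rpr* (FBgn0011706, 3L:18397535-18398435) is only 901 bp long and had no peak over the gene. Its listed peak ended 659 bp to its left, with identical ends in the 2 lists (3L:18393247-18396876), and had heights of 1.71 in ecd1 discs and 1.51 in control discs. The difference of 0.20 was larger than at 38.7% of the 1801 peaks with identical ends. On the other side of the gene the ecd1 list has a peak of 1.30 at 2302 bp (3L:18400737-18403144). The control list has 2 there, of 0.68 at 935 bp (3L:18399370-18401091) and of 1.28 at 3067 bp (3L:18401502-18403144). No differing region of either direction was listed for *rpr* or lay within 5000 bp of it. The tables list regions only where a gene was assigned, and the nearest annotated gene to *rpr* is 30089 bp away.

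*grim* (3L:18302719-18304417) and *skl* (3L:18438561-18439942) lay far from any called peak. The nearest peak to *grim* was 9047 bp away in both lists, with a height of 1.02 in ecd1 discs and 0.83 in control discs (3L:18292379-18293672). For *skl* the nearest peak was 17005 bp away in ecd1 discs (height 1.49) and 19182 bp away in control discs (height 0.61). Within 10 kb of *skl* no base lay under a peak in either genotype, as was the case for 10.7% of the 13922 protein-coding genes. DNA without a peak is DNA without a call in these lists, and how much signal was there is not known.

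The DNA from *hid* to *skl*, 272198 bp on 3L, was uneven. Peaks covered 61.9 kb of it in ecd1 discs (22.7%, 26 peaks) and 63.5 kb in control discs (23.3%, 30 peaks). Most of this lay on the *hid* side. Between *hid* and *grim*, peaks covered 41.6% of 117077 bp in ecd1 discs and 37.3% in control discs. Between *grim* and *rpr*, a stretch of 93117 bp, they covered 5.24% in ecd1 discs and 9.49% in control discs. Between *rpr* and *skl*, 40125 bp, the shares were 6.0% in ecd1 discs and 8.39% in control discs. The ecd1 share was thus the larger between *hid* and *grim* and the smaller in both intervals to the right of *grim*. Outside the cluster, DNA of the same length had 18.8% under peaks in ecd1 discs and 23.2% in control discs to the left of *hid*, and 6.67% in ecd1 discs and 6.25% in control discs to the right of *skl*.

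The densest part was the DNA next to *hid*. Cut into bins of 50 kb, the genome gave 2670 bins with a median of 10% of bases under ecd1 peaks and 10.1% under control peaks. In the bin 3L:18200001-18250000, which starts to the right of *hid*, the values were 61.6% in ecd1 discs and 57.2% in control discs, more than in 99.6% of all bins for ecd1 and in 98.9% for control. This stretch of peaks was seen first and measured afterwards, so its rank is a description. Its tallest peak (3L:18213196-18214125) had a height of 2.50 in ecd1 discs and 2.01 in control discs with identical ends, 27.6 kb from the right end of *hid*, and neither table lists it for a gene. Another, of 2.30 in ecd1 discs (3L:18232748-18239049) and 1.75 in control discs (3L:18233927-18238706), is listed for the non-coding gene *CR45937*.

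The differing regions between *hid* and *grim* were assigned to genes other than the activators. The authors' deposited tables have 7 there, of which 5 were higher in ecd1. In the authors' deposited tables as a whole, 71.5% of the distinct differing regions were higher in ecd1, a share near that of this stretch. The first, of 1.01 (3L:18198969-18200170), was assigned to *CG7320* and *CR45234* in the authors' deposited table. Heights of 1.17 (3L:18230527-18231297), 1.19 (3L:18233295-18233927) and 0.79 (3L:18242899-18243320) are given in the authors' deposited table for the non-coding genes *CR45935*, *CR45937* and *CR45936*. The rightmost, of 0.88 (3L:18254624-18256301), belongs to *CheA75a* in the authors' deposited table. Against these 5 stand the control region of 0.73 next to *hid* and one of 0.54 at *CG5103* and *CR43306* (3L:18294161-18295236), again from the authors' deposited table. Over the whole cluster, 5 regions were higher in ecd1 and 3 higher in control in the authors' deposited tables, and none of the 5 was listed for an activator gene. *CheA75a* belongs to a family of chemosensory proteins.

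To the right the 2 lists thinned out in different ways. In ecd1 discs no peak lay in 44.5 kb around *grim* or in the 53.8 kb to the left of the *rpr* peak, with a single peak of 0.81 between these gaps (3L:18338204-18339450). Control discs had 4 low peaks in this stretch, of 0.59 (3L:18314221-18317380), 0.46 (3L:18319562-18320139), 0.57 (3L:18338204-18338934) and 0.43 (3L:18358811-18359552). No more than 18.7% of the control list lay below any of them. No differing region was listed between *grim* and *rpr*. Regions are given only where a gene was assigned, and this stretch holds 1 annotated gene, a non-coding one. A difference there could thus have gone unlisted.

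**Figure D2:**
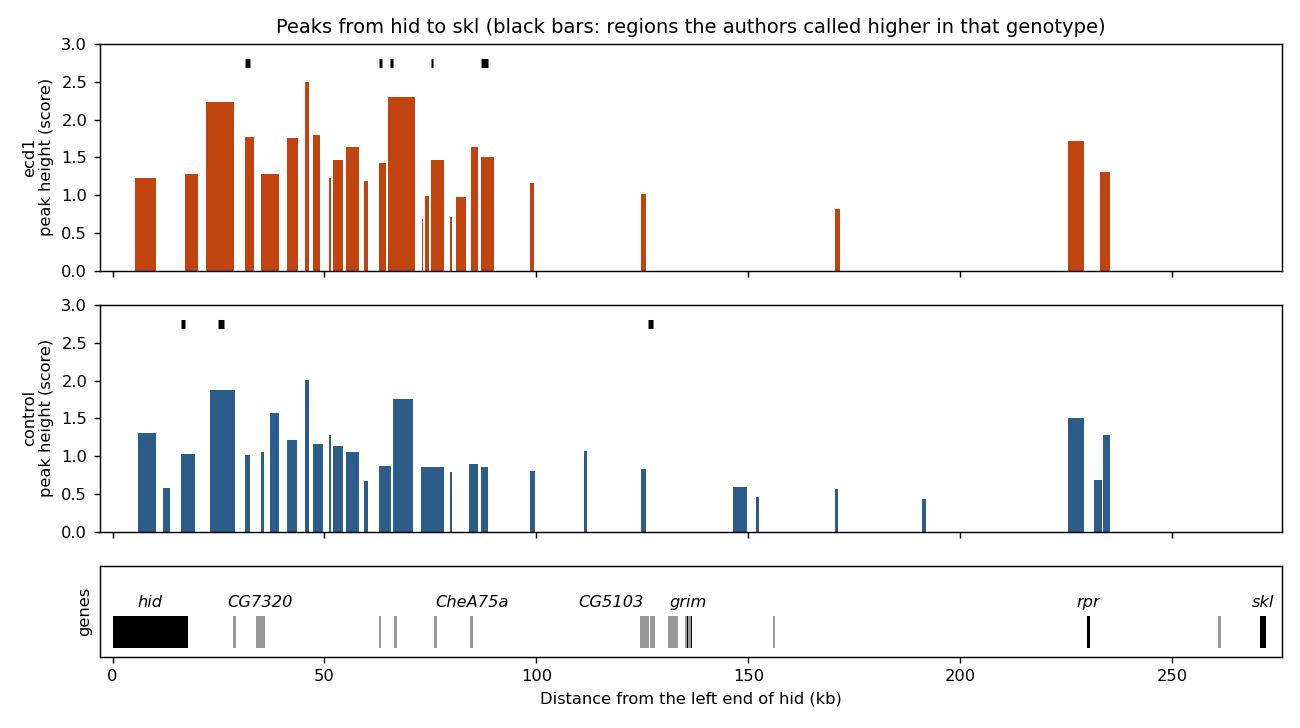
Peaks from *hid* to *skl*, ecd1 above and control in the middle, drawn to scale with distance from the left end of *hid* in kb on the horizontal axis and the authors' height on the vertical axis; the lowest panel shows annotated genes, with the 4 activators in black. Black bars above the peaks are regions called higher in that genotype (5 in ecd1, 3 in control); peaks crowd the *hid* side and are sparse around *grim*, left of *rpr* and at *skl*.

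Among the caspase genes, *Dronc* (FBgn0026404, 3L:9968479-9971002), the initiator, had the plainest difference. A single narrow peak of 547 bp within its span (3L:9968576-9969122) stood at 1.40 in ecd1 discs and 0.50 in control discs. The control value was larger than 9.98% of the control list, and the ecd1 value larger than 69.7% of the ecd1 list. For this interval the authors' deposited table has 0.90 on the ecd1 side, which is the subtraction of the 2 heights. No other peak lay within 10 kb of the gene, so the locus rests on 1 interval, assigned to no other gene.

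*Dark* (FBgn0263864, 2R:17020027-17026703), which encodes the adaptor, had peaks at both of its ends. Near the left end, inside the gene, a peak of 499 bp (2R:17020505-17021003) had heights of 1.71 in ecd1 discs and 0.87 in control discs. In the authors' deposited table this interval is 0.84 higher in ecd1. A low peak of 0.31 further in (2R:17021732-17022156) stood in the ecd1 list alone. At the right end the ecd1 list has a peak of 2.33, the tallest listed for any of the 10 genes, beginning 112 bp outside *Dark* (2R:17026815-17028906). A control peak of 1.08 (2R:17025850-17029575) was broader and reached 854 bp into the gene. The ecd1 peak was thus narrower and taller, and it lay just outside the gene. It is listed for further genes, among them *CR44390*. To the left, 3670 bp outside *Dark*, a peak with identical ends was the taller in control, with 1.18 in ecd1 discs and 1.45 in control discs (2R:17015067-17016357). A difference that low or lower is uncommon, as 3.05% of identical-end peaks lay below it. That peak is listed for *Ehbp1* and *CG8963*.

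*Dcp-1* (FBgn0010501, 2R:23551313-23553547), an effector caspase gene, lies inside the span of *pita*, a zinc finger gene. In control discs 1 peak of 1.5 covered the whole gene (2R:23550759-23554731). In ecd1 discs the same stretch, with the same outer ends, held 2 taller peaks, of 2.54 (2R:23550759-23552977) and 2.50 (2R:23553597-23554731). They covered 74.5% of the gene in ecd1 discs, against all of it under the control peak. The peak of 2.54 was taller than 98.5% of the ecd1 list. Left of the gene a broad ecd1 peak of 1.07 (2R:23545529-23550380) faced 2 low control peaks, of 0.83 (2R:23546211-23547118) and 0.37 (2R:23548468-23548927). The authors' deposited table lists for *Dcp-1* a region of 0.56 higher in ecd1, 933 bp to its left and shared with *levy* and *pita* (2R:23549102-23550380). *levy* encodes a cytochrome oxidase subunit. At the right end of *Dcp-1* the authors' deposited table gives 0.83 higher in ecd1 for *Rrp4* (2R:23553903-23554731), and another region, of 0.97, for *wmd* and *AIMP3* (2R:23545529-23547118). The 3 genes of this crowded locus thus share the region listed for *Dcp-1*, and no differing region was listed inside *Dcp-1* itself. With 1 region per gene in each direction, a further one higher in ecd1 could not be listed for *Dcp-1*.

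*Drice* (3R:29799658-29801584), the other effector caspase gene, had no peak near it. The nearest was 4987 bp away in ecd1 discs, with a height of 0.56 (3R:29793985-29794671), and 11532 bp away in control discs, with a height of 0.99. That ecd1 peak is listed for *sro*, which encodes an enzyme of ecdysone synthesis. The authors' deposited table gives *sro* a region of 0.41 higher in ecd1 within it (3R:29793985-29794604, 5054 bp outside *Drice*). In the 10 kb on either side of *Drice*, 3.13% of bases lay under ecd1 peaks and none under control peaks. The effector caspases thus differed from each other at this level, with *Dcp-1* under or beside ecd1 peaks of 2.54 and 2.50 and *Drice* under none.

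The inhibitor gene *Diap1* (FBgn0260635, 3L:16038410-16051034) lay largely under peaks, with 96.5% of it covered in ecd1 discs and 88.6% in control discs. Its main peak of 8863 bp, with identical ends in the 2 lists (3L:16040410-16049272), had a height of 2.18 in ecd1 discs and 1.54 in control discs. The difference of 0.64 was larger than at 83.2% of the identical-end peaks. Near the left end a peak had 2.14 in ecd1 discs (3L:16037720-16039968) and 1.04 in control discs (3L:16038504-16039968). The right end had 0.75 in ecd1 discs (3L:16049280-16051129) and 0.94 in control discs (3L:16049280-16050136), where the ecd1 peak was broader and lower. Inside the main peak the authors' deposited table gives 790 bp as 1.23 higher in ecd1 (3L:16043648-16044437), a height above 92.6% of the distinct regions in that direction. It is the largest of the heights listed for the 10 genes in the authors' deposited tables, and it is also listed for the antisense gene *CR45889*.

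*Diap2* (FBgn0015247, 2R:15932170-15934825) had no peak over the gene. A peak with identical ends lay 1361 bp to its left (2R:15929394-15930809), with heights of 2.01 in ecd1 discs and 1.40 in control discs. It lies inside *bdg*, a neurotransmitter transporter family gene, and is also listed for *CG8297*, which RefSeq names *bug*. The authors' deposited table gives most of that peak as 1.01 higher in ecd1 (2R:15929785-15930809) for the same 3 genes. To the right, 807 bp outside *Diap2*, a control peak of 0.71 (2R:15935632-15937132) had no ecd1 counterpart within 5000 bp of the gene. It is listed for *Mlf*.

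**Figure D3:**
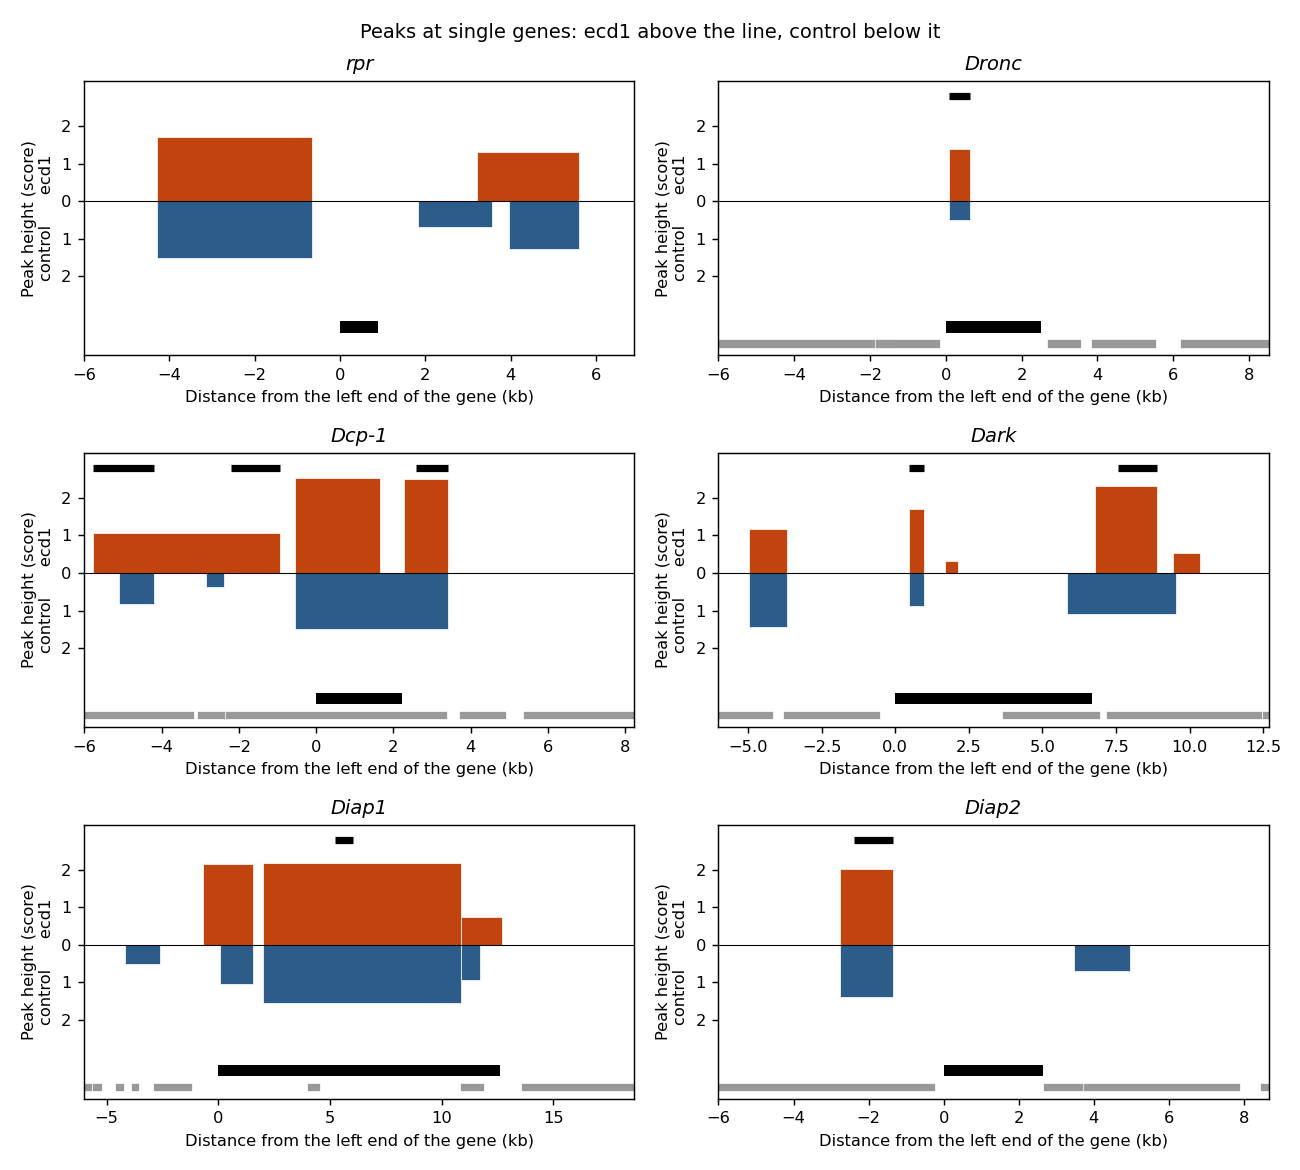
Peaks within 6 kb of *rpr*, *Dronc*, *Dcp-1*, *Dark*, *Diap1* and *Diap2*, ecd1 above the line and control below it, with distance from the left end of the gene in kb and height as the authors' score; the gene is the black box, other genes are grey, and black bars are regions called higher in ecd1. *Dronc* has 1 peak in each list (1.40 in ecd1, 0.50 in control), *Dcp-1* has 2 ecd1 peaks over 1 control peak, and the peaks of *rpr* and *Diap2* lie beside the genes.

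Peaks whose ends coincide between the lists allow the closest comparison, as both heights then describe the same DNA. Of the 1801 such peaks, 85% were taller in ecd1, with a median difference of 0.28 (quartiles 0.09 and 0.53). Within 2000 bp of listed peaks, 5 genes had one, and all 5 were taller in ecd1. Such a direction was common across the genome. In size the differences went from 0.20 at *rpr* through 0.61 at *Diap2*, 0.64 at *Diap1* and 0.84 at *Dark* to 0.90 at *Dronc*. The first lies under the genome-wide median and the other 4 above the upper quartile. No peak of *hid* had identical ends in both lists.

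**Figure D4:**
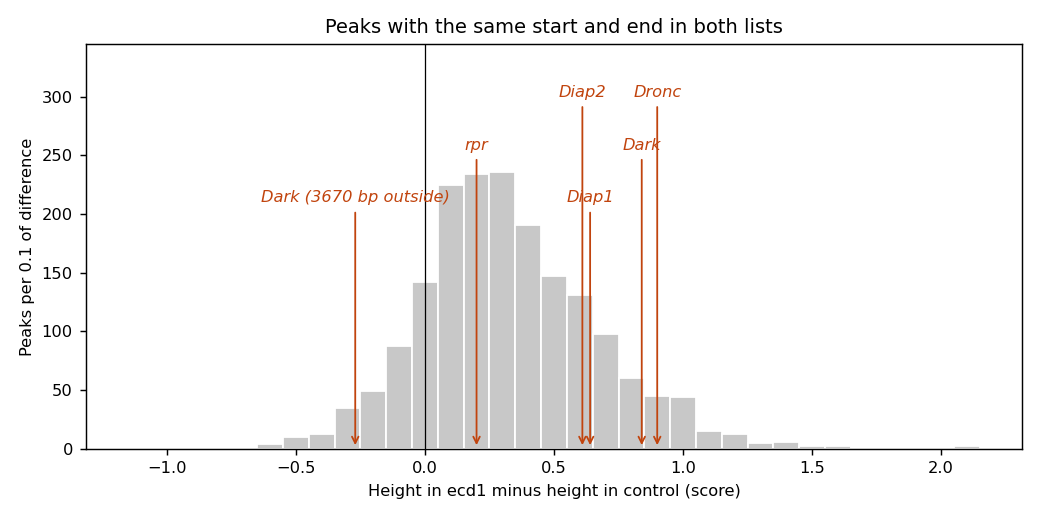
Difference in height, ecd1 minus control (authors' score, horizontal axis), for the 1801 peaks with identical ends in both lists, as the number of peaks per 0.1 of difference, with arrows at the peaks of *rpr*, *Diap2*, *Diap1*, *Dark* and *Dronc*. *rpr* (0.20) sits near the middle of the distribution and *Dronc* (0.90) on its right shoulder; the one arrow left of 0 is the peak 3670 bp outside *Dark* (-0.27).

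The 2 sets of genes also sit in different surroundings. No other annotated gene lies within 10 kb of *rpr*, 1 lies within 10 kb of *hid* and 2 within 10 kb of *skl*, where protein-coding genes had a median of 6. *grim* had 5. The caspase, adaptor and inhibitor genes had 6 to 9. *Drice* is 15 bp from its neighbour *Etfb*, which encodes an electron transfer flavoprotein subunit, and *Diap2* touches *bug*. The authors' deposited table can list a region for several genes, and the region listed for the member stood for 1 gene at *Dronc* and at *Dark*, for 2 at *Diap1* and for 3 at *Dcp-1* and *Diap2*.

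Coverage in the gene and 10 kb on either side did not part the sets. Around *hid* it was 41.1% in ecd1 discs and 37.1% in control discs, and around *rpr* 28.9% in ecd1 discs and 33.5% in control discs. *grim* had 4.40% in ecd1 discs and 5.30% in control discs. Values for the caspases, the adaptor and the inhibitors ran from 2.43% to 45.7% in ecd1 discs and from 0% to 46.6% in control discs. The highest were around *Diap1*, with 45.7% in ecd1 discs and 46.6% in control discs. *Dcp-1* had the widest gap between the genotypes, with 44.3% in ecd1 discs and 24.0% in control discs, and *Dronc* had 2.43% in both. Protein-coding genes had medians of 13.3% in ecd1 discs and 12.7% in control discs.

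**Figure D5:**
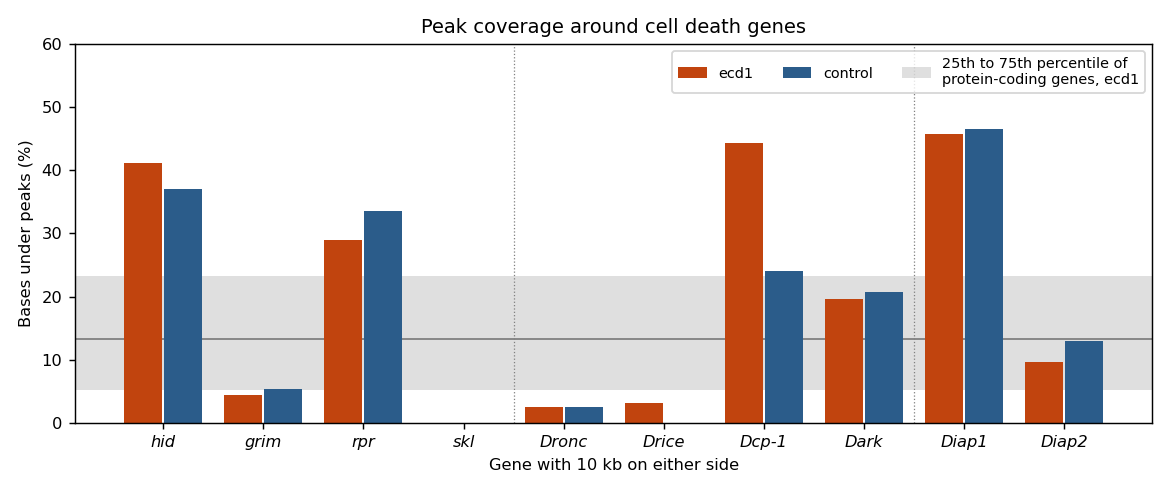
Percentage of bases under peaks in each gene with 10 kb on either side (vertical axis), ecd1 left of control; the grey band and line mark the quartiles and median of protein-coding genes in ecd1 discs (5.27%, 13.3% and 23.3%). *hid*, *rpr*, *Dcp-1* and *Diap1* stand above the band in ecd1 discs, while *grim*, *skl*, *Dronc* and *Drice* fall below it.

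Other genes of the pathway were read from 5 lists with 52 genes, of which 50 matched an annotated gene. Of these, 36 had a listed peak in ecd1 discs and 34 in control discs. Among the 38 with a peak in either, 28 had a region higher in ecd1 (73.7%, against 57.1% of all genes with a peak) and 7 a region higher in control (18.4%, against 22.1%). The lists were drawn up with earlier results on some of these genes known, so the counts are no independent support. The same shares of all genes with a peak, 57.1% and 22.1%, stand against the counts of each list below.

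Upstream of the pathway stand p53, the checkpoint kinases and the TNF branch, which lead to the activator genes or to JNK. All 9 genes of this list that had a peak were called higher in ecd1, where 57.1% of all genes with a peak were. With 9 genes, picked with earlier results known, this count is a description and was not tested. The largest heights in the authors' deposited table were 1.04 for *Corp*, a p53 target that restrains p53 (X:8271196-8272024), and 1.00 for *wgn*, a TNF receptor gene (X:18628997-18630484). *Tak1*, a kinase of the same branch, was also given 0.55 on the control side by the authors' deposited table (X:20524490-20525258). The remaining gene, *mei-41*, had no listed peak.

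Of 14 further caspases, BIR proteins and death regulators, 11 had a peak, 7 were called higher in ecd1 and 1 was called higher in control. *Dredd*, a caspase of the immune pathway, had 1.10 (X:635474-635908) and its adaptor gene *Fadd* had 1.05 (3R:22034442-22035075) in the authors' deposited table, each higher in ecd1. *Jafrac2*, named *Prx4* in RefSeq, encodes a peroxiredoxin that can bind Diap1. In the authors' deposited tables it had a region of 0.93 higher in ecd1 (3L:3045682-3047536) beside one of 1.04 higher in control (3L:3044642-3045106), both outside the gene.

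In the mitochondrial and Bcl-2 list of 10 genes, 7 had a peak, 4 were called higher in ecd1 and none was called higher in control. *debcl*, a Bcl-2 family gene, had the largest height of all 5 lists in the authors' deposited table, 1.63 on the ecd1 side (2R:6647894-6649345). Its listed peaks had 2.39 in ecd1 discs and 1.16 in control discs. *Drp1*, the mitochondrial fission gene, had 0.99 (2L:2584129-2584732) in the authors' deposited table and a listed peak in ecd1 discs alone. *Buffy*, the other Bcl-2 family gene, had listed heights of 0.77 in ecd1 discs and 0.87 in control discs and no differing region.

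Genes that clear dead cells or their DNA made up 11 list members, of which 7 had a peak, 5 were called higher in ecd1 and 2 were called higher in control. *mbc*, which encodes a Rac activator used in engulfment, had 0.99 higher in ecd1 (3R:23784800-23785954) in the authors' deposited table. *drpr*, the engulfment receptor gene, had 0.65 higher in ecd1 outside the gene (3L:1714160-1714809) and 0.88 higher in control inside it (3L:1729721-1730020) in the authors' deposited tables. *DNaseII*, a nuclease gene, had 0.50 higher in control (3R:18020285-18021993) in the authors' deposited table and none higher in ecd1.

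The last list held 7 regulators of *hid* and *Diap1*, among them the Ras pathway, which represses *hid*, and the microRNA bantam, which targets its transcript. Peaks were listed for 4 of them, with a region higher in ecd1 for 3 and higher in control for 3. *aop*, a transcriptional repressor gene of the Ras pathway, had 1.19 higher in ecd1 (2L:2162189-2163701) and 0.71 higher in control (2L:2167206-2168756) in the authors' deposited tables. *ban* had 0.93 higher in ecd1 (3L:639400-641545) and 0.58 higher in control (3L:644045-644934) in the authors' deposited tables, 663 and 1757 bp outside the microRNA hairpin. *rl*, the MAP kinase gene, had 0.67 higher in control (2R:1072305-1072970) in the authors' deposited table. *yki*, whose product raises *Diap1* transcription, had no listed peak.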

How the data were processed

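Targeted DamID was performed on wing discs, and amplicons of methylated DNA were read from both ends at 50 bp, per the labels' protocols. The genome build is BDGP6, per the submitters' processing notes. How reads were aligned, peaks called, Dam-only libraries used and replicates combined is not given in the sources used here. The authors deposited peak heights, a score without a stated scale, and an FDR (a q-value), which lies under 0.01 for every peak. Each genotype has 1 peak list and 1 gene table, and differing regions come in a table for each direction with 1 region per gene. Values per library were not used here, so nothing was tested, depth is unknown, and paired or leave-one-out fits were not made.

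Gene spans came from a RefSeq table of Release 6 plus ISO1 MT, without strand or exons, so transcription starts were not analysed. Distances are gaps between intervals; overlap means at least 1 bp. Coverage counts distinct bases (Python 3.11.15, pandas 2.3.3, numpy 2.4.6; interval code checked on simulated intervals). The groups of libraries follow the titles. Named are the 10 genes, genes sharing their peaks or regions, and, in the 5 wider lists, the 2 largest heights in each direction, with *mei-41*, *Buffy* and *yki* added after their values were seen; an item that this rule selects is not reported here. Members and lists were chosen with earlier results of these data known. Alternatives were a height of at least 1, an FDR under 0.001, assignment by annotated span (overlap, 2000 bp or 5000 bp), a wider cluster and other choices of peaks.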

Additional observations from a re-analysis of the deposited data

How the results depend on the processing

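No paired analysis was possible because the files hold no values per library. For the same reason leaving out a replicate was not run. With a height of at least 1 required, 2 of the 10 genes (*Diap1* and *Diap2*) had a listed region higher in ecd1 instead of 5, and 0 had one higher in control instead of 1. With overlap of the gene span required, 3 had a region higher in ecd1. Peak bases from *hid* to *skl* in control discs were 39622 with heights of at least 1 and 63514 with all peaks. From the listed peaks alone, the tallest peak was 2.33 in ecd1 discs instead of 2.54, and 1.51 in control discs instead of 1.88. In the other 24 of 30 alternatives, counts and bases stayed within 1.5 times the reported value and the tallest heights were the same. The lowest of these for bases was 42739 in ecd1 discs with an FDR under 0.001, against 61869 with all peaks. Control discs had 51648 at that FDR limit. With heights of at least 1, ecd1 discs had 56527 bases, against the 39622 of control discs. Which genotype had more peak bases from *hid* to *skl* thus depended on the setting. The stricter settings leave fewer peaks or regions by construction; the causes were not tested further. Depth is unknown, so a locus without a peak is a locus without a call.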
